A study of Gallus gallus with 88 samples.

Results

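Chromosome Z of the chicken carried 545 of the 12300 probe sets that name exactly 1 gene, and these 545 probe sets of 516 genes are described here in the large breast muscle (pectoralis major) of broilers. Members were chosen by the chromosome of the annotated gene, with no use of the measured values, and each of the 545 was tested, with no filter on level. By type they were 524 protein-coding, 17 microRNA, 3 long non-coding RNA and 1 other RNA probe sets, and 29 genes had more than 1 probe set. Male birds are ZZ and female birds ZW, so a male holds 2 copies of a Z gene and a female 1. Birds have no known inactivation of a whole Z chromosome, and dosage compensation in chicken is known to be incomplete and to differ from gene to gene. A gene compensated in full has equal signal in both sexes (0 on the log2 scale), and a gene that follows copy number has a log2 difference of 1. In chicken, a stretch of Z near DMRT1, the male-determining gene of birds, is known as the male hypermethylated region, which is transcribed into non-coding RNA in females.

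The study measured 88 arrays (Affymetrix, 1-colour, 1 per animal) from eggs incubated at 37.8 °C apart from a treatment interval. At embryonic day 10 (ED10) there were 8 arrays each of control eggs, eggs held at 38.8 °C and eggs held at 36.8 °C on ED7 to ED10, and at embryonic day 13 (ED13) 8 of each with the interval ED10 to ED13. At post-hatch day 35 (D35), slaughter age, there were 8 controls and 8 arrays for each temperature in each interval. All animals were broilers fed a standard diet after hatch, and no allele or agent other than temperature is labelled. The values are log2 signals of a probe set. The labels give no sex, so each array was sexed by its mean signal over 18 chromosome W probe sets, split at the widest gap within its age.

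That split was wide at every age. On ED10 the W mean reached at most 5.0 in the 13 arrays called ZZ and at least 8.16 in the 11 called ZW. On ED13 the bounds were 5.05 and 8.66 with 12 arrays on either side, and at D35 they were 3.56 and 6.18 with 20 on either side. The next widest gap within an age was 0.38, 0.22 and 0.28. Each group held 4 males and 4 females, except the 36.8 °C group of ED10 with 5 males and 3 females. Using the W median in place of the mean changed the sex of 0 arrays. Of 10 skeletal muscle markers 7 were measured, and 6 of them on ED10 and all 7 later stood at or above the median of all probe sets, as did 7 of 9 measured cartilage markers on ED10 but only 1 of 9 at the later ages. None of the measured marker genes of 8 cell types had a group mean of 0, which does not show that each was expressed. Some were dim, such as HAPLN1 of cartilage at D35, with a male mean of 3.09. The D35 arrays have lower medians (6.32 to 6.76) than the embryo arrays (7.56 to 8.13), so their values stand beside those of embryos without a test. In such whole-tissue samples, fewer cells of a type and less RNA per cell cannot be told apart.

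Males had more signal than females from most of chromosome Z, but less than copy number alone would give. The median male minus female difference of the 545 probe sets was 0.31 on ED10, 0.31 on ED13 and 0.37 at D35, which are ratios of 1.24, 1.24 and 1.29. Over 11691 autosomal probe sets the medians were -0.03, 0.01 and 0.04. The difference was above 0 for 481 members on ED10, 451 on ED13 and 465 at D35. The interquartile range of the members was 0.40 on ED10 (from 0.12 to 0.52), 0.45 on ED13 (from 0.08 to 0.53) and 0.49 at D35 (from 0.12 to 0.62). That of autosomal probe sets was 0.12, 0.09 and 0.16.

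**Figure D1:**
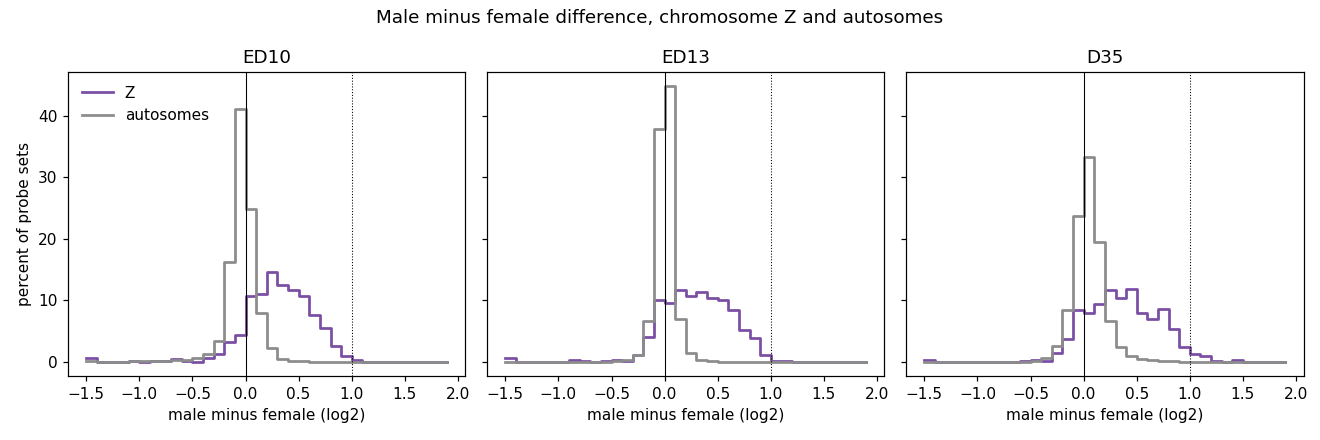
Share of probe sets (percent, y axis) by male minus female log2 difference (x axis, bins of 0.1, values past the ends drawn in the end bins) for the 545 chromosome Z and 11691 autosomal probe sets at ED10, ED13 and D35; the solid line marks 0 and the dotted line a log2 difference of 1. The chromosome Z medians of 0.31, 0.31 and 0.37 lie between these lines, and the autosomal medians lie near 0.

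Taken member by member in limma, 156 of the 545 (28.6%) were higher in males on ED10, 279 (51.2%) on ED13 and 255 (46.8%) at D35. Over all 20706 probe sets, members included, the shares called male-higher were 1.2%, 2.21% and 2.46%, and over autosomal probe sets 0.0171%, 0.0342% and 0.932%. Members made up 98.1%, 98.2% and 69.9% of the male-higher calls with a single gene symbol at the 3 ages. The opposite call was made for 7, 9 and 3 members, against 0.328%, 0.401% and 0.372% of all probe sets. Every male array lay above every female array for 35 members on ED10, 135 on ED13 and 23 at D35 (0.256%, 1.02% and 0.174% of all probe sets). Every female lay above every male for 4, 6 and 2 members (0.261%, 0.28% and 0.222%). At D35, when more autosomal genes were called, 2 of the 7 measured skeletal muscle markers were also male-higher, the fast myosin heavy chains MYH1A (0.80) and MYH1C (1.14). Their part in the D35 values was not tested. On ED10 no marker passed. The summed log2 signal of the 9 measured cartilage markers, 1 of them the chromosome Z gene HAPLN1, ran from 55.4 to 90.6 in males and from 74 to 92.2 in females. That of the 6 measured skin epithelium markers ran from 38.8 to 55.3 in males and from 37.1 to 58.8 in females.

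The level of chromosome Z relative to autosomes put the arrays in order of sex. Each probe set was set against its own mean over the arrays of its age. The level is the median of these deviations over chromosome Z minus that over autosomes. It ran from -0.04 to 0.27 (median 0.24) in ED10 males and from -0.39 to -0.05 (median -0.24) in ED10 females. On ED13 it ran from 0.08 to 0.24 (median 0.17) in males and from -0.26 to -0.09 (median -0.16) in females. At D35 it ran from 0.07 to 0.29 (median 0.17) in males and from -0.25 to -0.06 (median -0.17) in females. The lowest male stood above the highest female at each age, by the smallest margin on ED10. The ED10 arrays also differed by their place in the sample listing, where the arrays of an age fall into 2 blocks that each hold 4 controls and all arrays of a treated temperature. ED10 males of the first block (with the 38.8 °C arrays) read 0.22 to 0.27 and those of the second (with the 36.8 °C arrays) -0.04 to 0.24. ED10 females of the first block read -0.24 to -0.05 and those of the second -0.39 to -0.24. Within the first block alone 154 members were called by sex on ED10, and within the second 31, with medians of 0.36 and 0.29. Shares of all probe sets within a block are not given here, so these 2 counts have no background beside them.

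**Figure D2:**
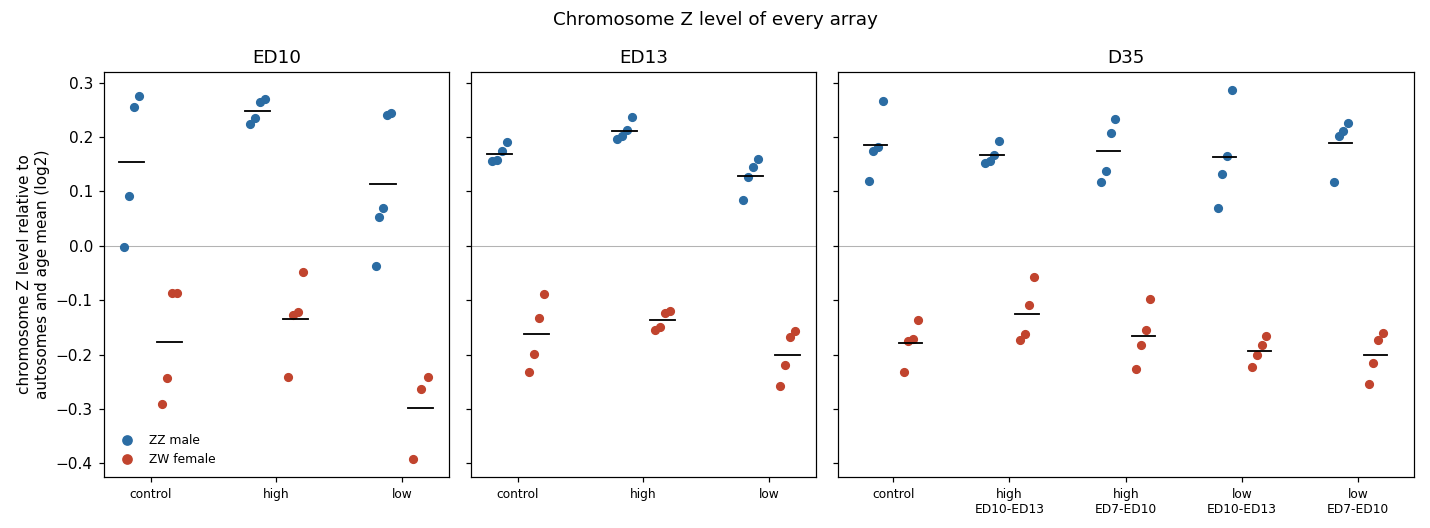
Median log2 deviation of chromosome Z probe sets from their means over the arrays of an age, minus that of autosomal probe sets (y axis), by temperature group (x axis). Each point is an array, blue for ZZ males and red for ZW females, and each bar is a mean. All males lie above all females within an age, from -0.04 upward on ED10, 0.08 on ED13 and 0.07 at D35.

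Few members reached, in array signal, the ratio that copy number gives. How closely array signal follows RNA amount was not tested. The observed difference was above 1 for 2 members on ED10, 2 on ED13 and 15 at D35. The 95% interval lay wholly below 1 for 491, 518 and 474 of the 545. With a lower bound above 0.7 as the mark of a ratio near 2-fold, 0 members qualified on ED10, 11 on ED13 and 24 at D35. KIAA2026 and XPA count there with 2 probe sets each at D35. Of all probe sets 0.00483%, 0.101% and 0.179% qualified, and 0 autosomal ones at each age. This mark depends on the width of the interval, and the median SE of members was 0.12, 0.08 and 0.11. The difference also varied with signal level. With members ranked by level in 4 equal groups, its median was 0.14, 0.08 and 0.13 at the 3 ages in the dimmest group, against 0.41, 0.45 and 0.47 in the third and 0.40, 0.38 and 0.44 in the brightest. Members at or above the median level of all probe sets had medians of 0.39, 0.42 and 0.45.

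WDR36, a protein of the complex that processes small-subunit ribosomal RNA, stood near the top at each age. On ED10 it read from 9.89 to 10.66 (median 10.13) in males and from 8.63 to 9.73 (median 9.51) in females, on ED13 from 9.93 to 10.39 (median 10.15) in males and from 8.99 to 9.52 (median 9.19) in females. At D35 it read from 7.95 to 8.89 (median 8.61) in males and from 6.96 to 7.79 (median 7.46) in females. No male overlapped a female at any age, and the differences were 0.88 ± 0.10 (SE, adjusted p = 1.53e-06), 0.96 ± 0.07 (adjusted p = 3.55e-10) and 1.15 ± 0.07 (adjusted p = 1.84e-15). TOMM5, a small subunit of the importer of the mitochondrial outer membrane, showed the same separation. Its D35 signal ran from 8.06 to 8.91 (median 8.52) in males and from 5.96 to 7.93 (median 7.44) in females, and its differences at the 3 ages were 0.80, 0.98 and 1.07. MTAP, which salvages methionine, differed by 0.91, 1.14 and 1.02, and C9orf72, known for repeat expansions in human motor neuron disease, by 0.91, 0.99 and 0.98. Both were called at every age, with some overlap of the sexes on ED10 and at D35. TBCA, a tubulin folding cofactor, differed by 0.84, 0.65 and 1.18. XPA, a nucleotide excision repair protein, has 2 probe sets, which at D35 differed by 1.49 and 1.07. Its first probe set read as low as 5.07 in a D35 female, against a female median of 7.95.

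Ribosome and translation genes were male-higher nearly throughout. Of 7 listed members 5 were called male-higher on ED10, 6 on ED13 and all 7 at D35, with medians of 0.45, 0.47 and 0.80. RPL17 counts here by its brighter probe set, and its other probe set, described below, was female-higher at each age. The medians of all tested probe sets, for comparison here and below, were -0.02, 0.01 and 0.04. Those of the 545 members were 0.31, 0.31 and 0.37, with 28.6%, 51.2% and 46.8% of them male-higher. RPS6, a small-subunit protein that is phosphorylated by growth signalling, read from 12.28 to 12.74 (median 12.52) in males and from 11.83 to 12.24 (median 12.10) in females on ED10. On ED13 it read from 12.36 to 12.63 (median 12.54) in males and from 11.77 to 12.16 (median 11.98) in females, and at D35 from 11.32 to 11.91 (median 11.62) in males and from 10.33 to 11.04 (median 10.77) in females. The sexes did not overlap at any age, and the differences were 0.45 ± 0.06 (SE, adjusted p = 1.36e-05), 0.55 ± 0.04 (adjusted p = 1.47e-10) and 0.86 ± 0.06 (adjusted p = 8.69e-14). RPS23, another small-subunit protein, differed by 0.61, 0.69 and 0.80, and HNRNPK, an RNA-binding protein, by 0.45, 0.45 and 0.59. RPL37, of the large subunit, differed by 0.02, 0.02 and 0.21 on its bright probe set, of which only D35 was called. That D35 call (adjusted p = 0.0426) did not hold under every alternative processing. A dimmer RPL37 probe set differed by 0.61, 0.88 and 1.03, of which only ED13 was called, so the probe sets of this gene disagree in size.

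The calls among genes of mitochondria and energy metabolism were male-higher with the exception of AK3. Of 12 listed members, among them the cytosolic enzymes FBP1, FBP2 and ACO1, 6 were male-higher on ED10, 8 on ED13 and 9 at D35, FBP1 and FBP2 included, and at each age 1, AK3, was female-higher. The medians were 0.48, 0.55 and 0.67. COX7C, a subunit of cytochrome c oxidase, read from 11.85 to 12.15 (median 11.96) in males and from 11.01 to 11.69 (median 11.38) in females on ED10. On ED13 it read from 11.93 to 12.15 (median 11.99) in males and from 11.12 to 11.45 (median 11.30) in females, and at D35 from 12.04 to 12.48 (median 12.21) in males and from 11.25 to 11.84 (median 11.58) in females. Males and females of COX7C did not overlap at any age, with differences of 0.58 ± 0.06 (adjusted p = 9.60e-07), 0.71 ± 0.04 (adjusted p = 1.69e-12) and 0.66 ± 0.06 (adjusted p = 2.05e-11). Of the mitochondrial ribosomal proteins, MRPS30 differed by 0.76, 0.93 and 1.04 and MRPL50 by 0.57, 0.74 and 0.78. NDUFS4, a subunit of respiratory complex I, differed by 0.48, 0.47 and 0.61. FBP1, a gluconeogenic enzyme, differed by -1.02 on ED10 with an interval of -2.33 to 0.29; its highest ED10 female read 12.40 against a female median of 6.17. At D35 the same gene was male-higher by 0.99 (adjusted p = 0.00200).

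Among muscle and neuromuscular genes, 2 of 6 listed members were male-higher on ED10, 3 on ED13 and 4 at D35, with medians of 0.27, 0.25 and 0.41. These medians were near those of the other members (0.31, 0.31 and 0.37). MUSK, the receptor kinase that organises the neuromuscular junction, read from 8.87 to 9.64 (median 9.34) in males and from 7.94 to 9.19 (median 8.63) in females on ED10. On ED13 it read from 9.84 to 10.36 (median 10.11) in males and from 9.26 to 9.80 (median 9.52) in females, and at D35 from 6.21 to 8.06 (median 7.20) in males and from 5.29 to 6.89 (median 6.48) in females. The sexes were apart on ED13 and overlapped at the other ages, with differences of 0.69 ± 0.14 (adjusted p = 0.00615), 0.59 ± 0.05 (adjusted p = 1.04e-08) and 0.74 ± 0.14 (adjusted p = 5.89e-04). MEF2C, a transcription factor of muscle differentiation, was called at each age with smaller differences of 0.35, 0.24 and 0.43. CKMT2, the sarcomeric mitochondrial creatine kinase, differed by 0.17 and -0.07 in embryos, past no threshold, and by 0.40 at D35 (adjusted p = 0.0174). That call did not hold with arrays centred on autosomes, and within the listing blocks the D35 difference was 0.59 and 0.20. CKMT2 was dim in embryos, with male means of 6.96 and 7.15, below the embryo array medians of 7.56 to 8.13. At D35 its male mean was 11.88. HSPB3, a small heat shock protein of muscle, differed by 0.30 and 0.26 in embryos, where its male means were 6.47 and 7.49. At D35 HSPB3 read from 8.26 to 9.80 (median 9.12) in males and from 6.42 to 8.73 (median 8.08) in females, with overlap, and was male-higher by 1.16 ± 0.16 (adjusted p = 8.64e-07).

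Lipid genes were mixed. Of 12 listed members 3 were male-higher on ED10 and ED13 and 5 at D35, 1 was female-higher on ED13 (OXCT1, which activates ketone bodies, by -0.21), and the medians of 0.07 and 0.10 in embryos and 0.29 at D35 were below those of the other members (0.31, 0.31 and 0.38). PLIN2, a coat protein of lipid droplets, read from 10.98 to 11.41 (median 11.22) in males and from 10.55 to 10.81 (median 10.63) in females on ED10. The sexes of PLIN2 were apart on ED10 and ED13 and overlapped at D35, where males reached 12.02 and females 10.92. Its differences of 0.59, 0.60 and 0.79 were called at each age, and so were those of ACAA2, the last enzyme of the beta-oxidation cycle, at 0.52, 0.73 and 1.05. HSD17B4, a peroxisomal oxidation enzyme, differed by 0.50, 0.63 and 0.70, and its ED10 call was lost with sex as the only term (adjusted p = 0.0520). LPL, which releases fatty acids from lipoproteins, differed by -0.05, -0.01 and 0.27, and HMGCS1, an early enzyme of sterol synthesis, by -0.09, -0.03 and 0.31; neither was called at any age.

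Among the remaining groups the share called varied widely. Of 15 cell cycle and DNA repair members 7 were male-higher on ED10, 13 on ED13 and 8 at D35 (medians 0.58, 0.57 and 0.39), with CCNH, a cyclin of the CDK-activating kinase, at 0.78, 0.78 and 0.77. Most members called on ED13 but not at D35 were dim at D35. Male means of SMC2, CENPH, HAUS1 and FANCG were 9.87, 8.92, 8.30 and 7.96 on ED13. At D35 they were 5.16, 5.25, 5.16 and 5.29, below the array medians of 6.32 to 6.76, whereas SKP2 read 7.75. XRCC4 and POLK were called on ED13 and at D35 though also below those medians at D35, with male means of 6.06 and 6.10. The part of signal level in these counts was not tested. MSH3, a mismatch repair protein, differed by 0.90, 0.88 and 0.84 on its brighter probe set. Of 10 chaperone and protein turnover members 3, 7 and 7 were male-higher (medians 0.42, 0.35 and 0.52). Of 14 growth factor and hormone signalling members 0, 6 and 4 were male-higher (medians 0.26, 0.23 and 0.29). PRLR, the prolactin receptor, is among them, at 0.61, 0.68 and 1.17 on its brighter probe set, called on ED13 and at D35. The dimmer one differed by 0.42, -0.54 and -0.15 and was never called. The brighter PRLR probe set was also below the array medians, with male means of 6.59, 6.39 and 4.63. Its female mean at D35 was 3.46. FST (follistatin), which binds and blocks myostatin, differed by 0.11, 0.05 and 0.04, past no threshold. Of 8 extracellular matrix members 1, 4 and 0 were male-higher (medians 0.31, 0.37 and 0.13). The 4 called on ED13, THBS4, FBN2, CCBE1 and ADAMTS12, were dim at D35. Their male means were 9.58, 9.53, 7.43 and 6.78 on ED13 and 5.60, 5.08, 5.58 and 5.05 at D35. THBS4, a matrix protein of tendon and muscle, read from 8.93 to 10.50 (median 9.47) in males and from 8.04 to 10.02 (median 8.53) in females on ED13, a difference of 0.93 ± 0.17 (adjusted p = 0.00104) with overlap. On ED10 it differed by 0.39 and at D35, where both sexes averaged 5.60, by -0.00, neither called. HAPLN1, the link protein of cartilage, differed by -0.69 on ED10 with the wide interval of -1.73 to 0.36, its males running from 5.70 to 11.41 and its females from 9.94 to 11.39. Of 13 listed genes that also have a copy on chromosome W, 7, 11 and 10 were male-higher (medians 0.44, 0.45 and 0.58), and ZNF532 was female-higher in embryos. RASA1, a Ras GTPase activator, is among the male-higher, at 0.65, 0.76 and 0.76 on 1 probe set and 0.68, 0.79 and 0.74 on the other. The 17 microRNA probe sets had medians of 0.14, 0.10 and 0.18, and 1, 2 and 0 of them were male-higher.

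The genes whose sex difference was placed near 0 by a 95% interval within -0.3 and 0.3 numbered 56 on ED10, 119 on ED13 and 67 at D35, which is 10.3%, 21.8% and 12.3% of members. The same bounds held 51.9%, 80.5% and 54% of autosomal probe sets. Members near parity were dimmer than the rest, with median levels of 7.28, 7.21 and 5.95 against 8.38, 8.41 and 6.87 in members of no class. At all 3 ages 15 members qualified: NARS, SYT4, CCL19, CD72, AVDL, SLC45A2, SNX18, DMRT1, JAK2, MIR1416, PCSK5, CHRNA8, PDE6B, CHRNB3 and SPINK4. NARS, which charges the asparagine transfer RNA, read from 9.61 to 9.90 (median 9.76) in males and from 9.51 to 9.95 (median 9.72) in females on ED13. The sexes of NARS overlapped almost fully, with differences of 0.06 (interval -0.10 to 0.22), 0.02 (-0.07 to 0.12) and 0.04 (-0.12 to 0.19). JAK2, a kinase of cytokine receptors, differed by 0.01, -0.09 and -0.02, with intervals from -0.27 to 0.29, from -0.25 to 0.06 and from -0.21 to 0.18. DMRT1 itself, whose role in sex determination is in the gonad, read from 6.89 to 7.56 (median 7.20) in males and from 6.95 to 7.37 (median 7.10) in females on ED10, and differed by 0.05, -0.11 and -0.09. SLC45A2, a pigment-cell transporter, differed by 0.06, -0.04 and 0.03. DMRT1 and SLC45A2 both averaged below the array medians, with male means of 7.19, 7.12 and 5.38 and of 6.47, 6.54 and 5.47. VLDLR, a lipoprotein receptor, lay within the bounds in embryos at -0.05 and 0.03 but was male-higher by 0.28 at D35 (adjusted p = 0.00227).

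Female-higher members numbered 9 over all ages, and 5 of them lay close together on the chromosome. The long non-coding RNA LOC100859072 differed most. On ED10 it was listed at 0 in 5 of 13 males and reached 3.18 in the highest, while females read 10.45 to 10.96 (median 10.69). On ED13 it was at 0 in 4 of 12 males and at most 3.07, against 10.38 to 10.91 (median 10.79) in females. At D35 it was at 0 in 14 of 20 males and at most 2.62, against 8.07 to 9.24 (median 8.76) in females. The sexes were far apart at each age, and the fitted differences of -9.68, -9.19 and -8.21 (adjusted p = 6.16e-16, 4.91e-16 and 1.27e-27) rest on males at the floor of the scale, so their size is uncertain. A neighbouring long non-coding RNA, LOC427353, was female-higher by a smaller margin, reading from 5.78 to 6.64 (median 6.20) in males and from 6.76 to 7.19 (median 7.06) in females on ED13. Its differences were -0.60, -0.78 and -0.48, called in embryos and not at D35 (adjusted p = 0.294).

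SLC1A1, a transporter of glutamate, lies beside them. On ED10 it read from 4.84 to 6.46 (median 6.01) in males and from 6.39 to 9.13 (median 7.33) in females, and on ED13 from 4.77 to 5.91 (median 5.68) in males and from 6.62 to 7.93 (median 7.05) in females. At D35 it read from 3.65 to 4.47 (median 4.06) in males and from 3.03 to 5.15 (median 4.36) in females. Females were higher in embryos, with little overlap on ED10 and none on ED13, by -1.66 ± 0.24 (adjusted p = 1.29e-04) and -1.57 ± 0.14 (adjusted p = 2.50e-08), whereas at D35 the sexes overlapped at a difference of -0.32 ± 0.14 (adjusted p = 0.305). In the listing blocks of D35 that difference was -0.00 and -0.64. AK3, a mitochondrial kinase that passes phosphate from GTP to AMP, was female-higher at all 3 ages. It read from 8.99 to 9.70 (median 9.52) in males and from 9.84 to 11.54 (median 10.21) in females on ED10 and from 9.25 to 9.54 (median 9.35) in males and from 9.90 to 10.45 (median 10.23) in females on ED13. At D35 it read from 9.65 to 10.49 (median 10.12) in males and from 10.07 to 11.09 (median 10.72) in females. The sexes were apart in embryos and overlapped at D35, with differences of -0.86 ± 0.13 (adjusted p = 1.46e-04), -0.85 ± 0.05 (adjusted p = 2.58e-11) and -0.54 ± 0.08 (adjusted p = 3.07e-06). GLDC, of the glycine cleavage system, was female-higher on ED13 alone, by -0.43 (adjusted p = 0.00395). At D35 its difference was 0.62, not called, with -0.18 in the first listing block and 1.41 in the second.

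The other female-higher members lie elsewhere. MARVELD2 (tricellulin), a protein of junctions where 3 epithelial cells meet, read from 6.77 to 7.36 (median 7.16) in males and from 7.04 to 8.26 (median 8.08) in females on ED13. Its differences were -0.77, -0.81 and -0.14, called in embryos and not at D35. OXCT1 was named above. ZNF532, a zinc finger gene, read from 8.14 to 8.64 (median 8.38) in males and from 12.17 to 13.06 (median 12.52) in females on ED13, differing by -4.13, -4.22 and -0.49. A probe set of RPL17, a large-subunit ribosomal protein, read from 3.92 to 6.30 (median 5.17) in males and from 11.10 to 11.49 (median 11.20) in females on ED13, differing by -6.53, -6.07 and -7.07, and was at 0 in 3 of 20 males at D35. The other RPL17 probe set went the opposite way, with males higher by 0.44, 0.47 and 0.99. Probe set numbers of this array follow gene order only in part. UTP15, ANKRA2 and BTF3, for example, are numbered apart from their neighbours on Z. The numbers of ZNF532 and of the female-higher RPL17 probe set stand 4 and 11 from a chromosome W probe set. Both have 0 of 10 neighbours in number on Z, whereas the other RPL17 probe set has 9 of 10 on Z. Such numbers do not fix the chromosome of a probe set. Whether these 2 probe sets report a W copy was not tested. Without ZNF532, this RPL17 probe set and LOC100859072 the medians of the other 542 members were 0.32, 0.31 and 0.38.

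**Figure D3:**
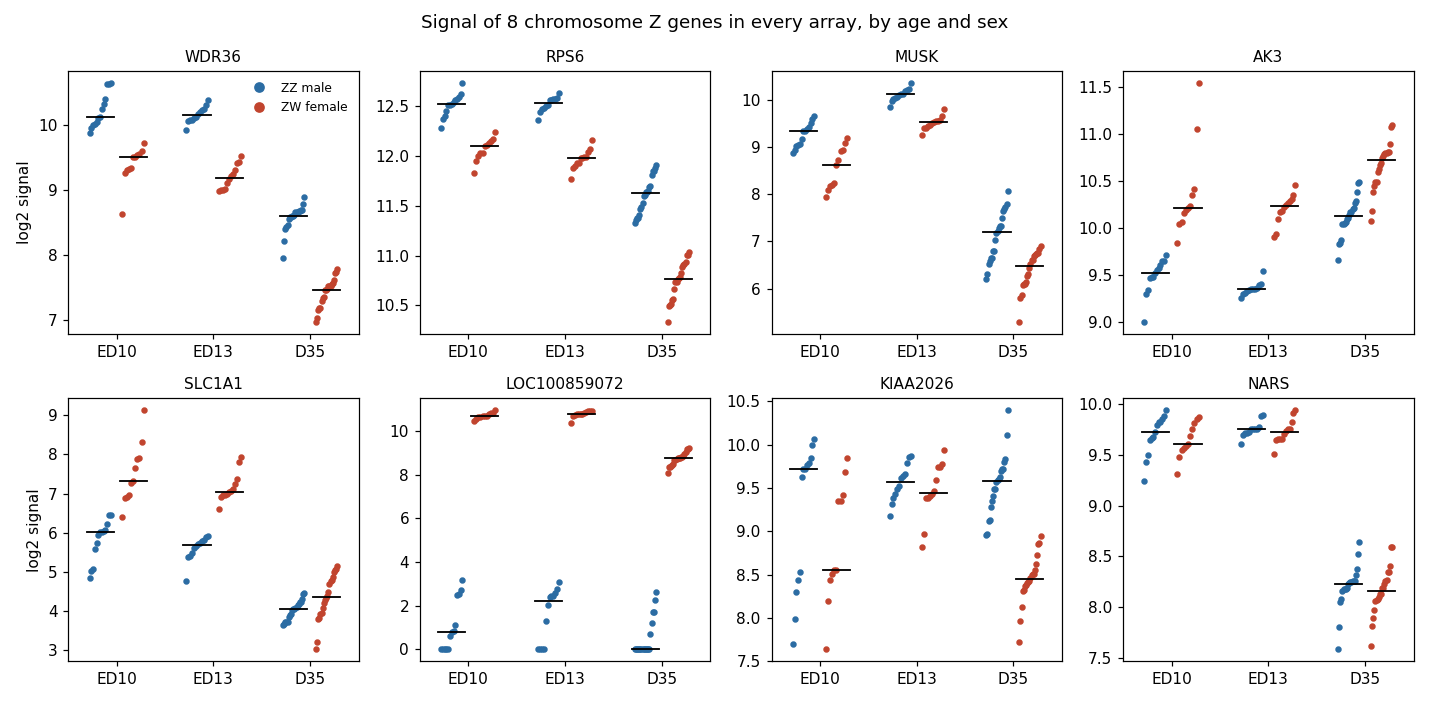
Log2 signal (y axis) of 8 chromosome Z genes in every array, by age (x axis) and sex; each point is an array, blue for ZZ males and red for ZW females, and bars are medians. WDR36 and RPS6 separate the sexes at each age with males above, and LOC100859072 with females above. AK3 separates them with females above in embryos, and the sexes overlap at D35. NARS shows medians of 9.76 and 9.72 on ED13.

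Position along the chromosome was examined by gene order in the GRCg7b annotation. The deposited files name no genome build. In 10 bins of 51 or 52 genes the median difference ran from 0.12 to 0.47 on ED10, from 0.09 to 0.40 on ED13 and from 0.22 to 0.47 at D35. The fifth bin, from VLDLR to GDA, had the lowest median at each age (0.12, 0.09 and 0.22), and it held 7, 15 and 15 male-higher genes of 51. It also had the lowest median level (7.74, 7.74 and 6.20). Over its genes at or above the median level of all probe sets, the median was 0.37, 0.35 and 0.45, the lowest of the bins at no age. By that measure the third bin was lowest in embryos (0.26 and 0.23) and the first at D35 (0.39). The ninth bin, from HAPLN1 to LOC427371, had medians of 0.47, 0.40 and 0.44, with 24, 32 and 28 of 51 genes male-higher. The sex difference of a gene and that of the next correlated weakly, with a Spearman coefficient of 0.12, 0.13 and 0.04 over 515 neighbouring pairs, which share arrays and in part genes.

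The fifth bin begins shortly after DMRT1. Over the 25 genes after DMRT1 (DMRT3 to NFIB) the median difference was -0.07 on ED10, -0.07 on ED13 and -0.00 at D35. Over the 25 genes before it (S100Z to KANK1) the medians were 0.36, 0.34 and 0.34, and over the other 465 genes 0.33, 0.32 and 0.40. Among the 25 after DMRT1, 0, 3 and 6 were male-higher and 4, 5 and 2 female-higher, against 8, 14 and 13 male-higher and 0 female-higher at each age among the 25 before. The genes after DMRT1 were also dimmer, with median levels of 7.74, 7.74 and 5.69 against 8.89, 8.81 and 7.22 before it. Of 502 windows of 15 genes, that with the lowest median ran from SLC1A1 to GLDC in embryos (-0.13 on ED10 and on ED13), genes 8 to 22 after DMRT1, and from GLIS3 to LOC100858941 at D35 (-0.08). This stretch was picked for its low values and gets no test. Beside SLC1A1, both long non-coding RNAs, AK3 and GLDC it holds genes with small differences, such as CDC37L1, an HSP90 co-chaperone (-0.10, -0.08 and -0.27), CD274, the immune checkpoint ligand (-0.13, -0.23 and -0.03), RLN3, a relaxin-family peptide (-0.07, -0.13 and -0.03), and JAK2. CD274 and RLN3 were dim, with male means of 6.29, 6.09 and 5.40 and of 5.46, 5.54 and 4.96. RCL1 was above 0 at each age (0.13, 0.19 and 0.28), never called. Of the 16 probe sets from SLC1A1 to GLDC, 12, 10 and 11 had a difference below 0. Just beyond GLDC lay TYRP1, dim and never called, at 0.21, -0.20 and -0.00. Then came MPDZ, a scaffold protein of cell junctions, at 0.39, 0.35 and 0.72 and NFIB, a transcription factor, at 0.39, 0.31 and 0.28.

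KIAA2026 was the only gene from SLC1A1 to GLDC called male-higher, and at D35 alone. At D35 it read from 8.96 to 10.40 (median 9.58) in males and from 7.72 to 8.94 (median 8.45) in females, with no overlap, a difference of 1.09 ± 0.09 (adjusted p = 2.21e-11), and its second probe set gave 1.25. On ED13 the sexes overlapped, at from 9.18 to 9.86 (median 9.57) in males and from 8.82 to 9.94 (median 9.44) in females, with differences of 0.09 and 0.13 on the 2 probe sets. On ED10 it read from 7.70 to 10.07 (median 9.71) in males and from 7.64 to 9.84 (median 8.56) in females, and the difference of 0.41 had an interval of -0.15 to 0.97. The ED10 arrays fell apart by listing block for this gene, males from 9.62 to 10.07 in the first and from 7.70 to 9.76 in the second, and females from 8.51 to 9.84 and from 7.64 to 8.56. At D35 the difference was 1.07 within the first block and 1.11 within the second.

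**Figure D4:**
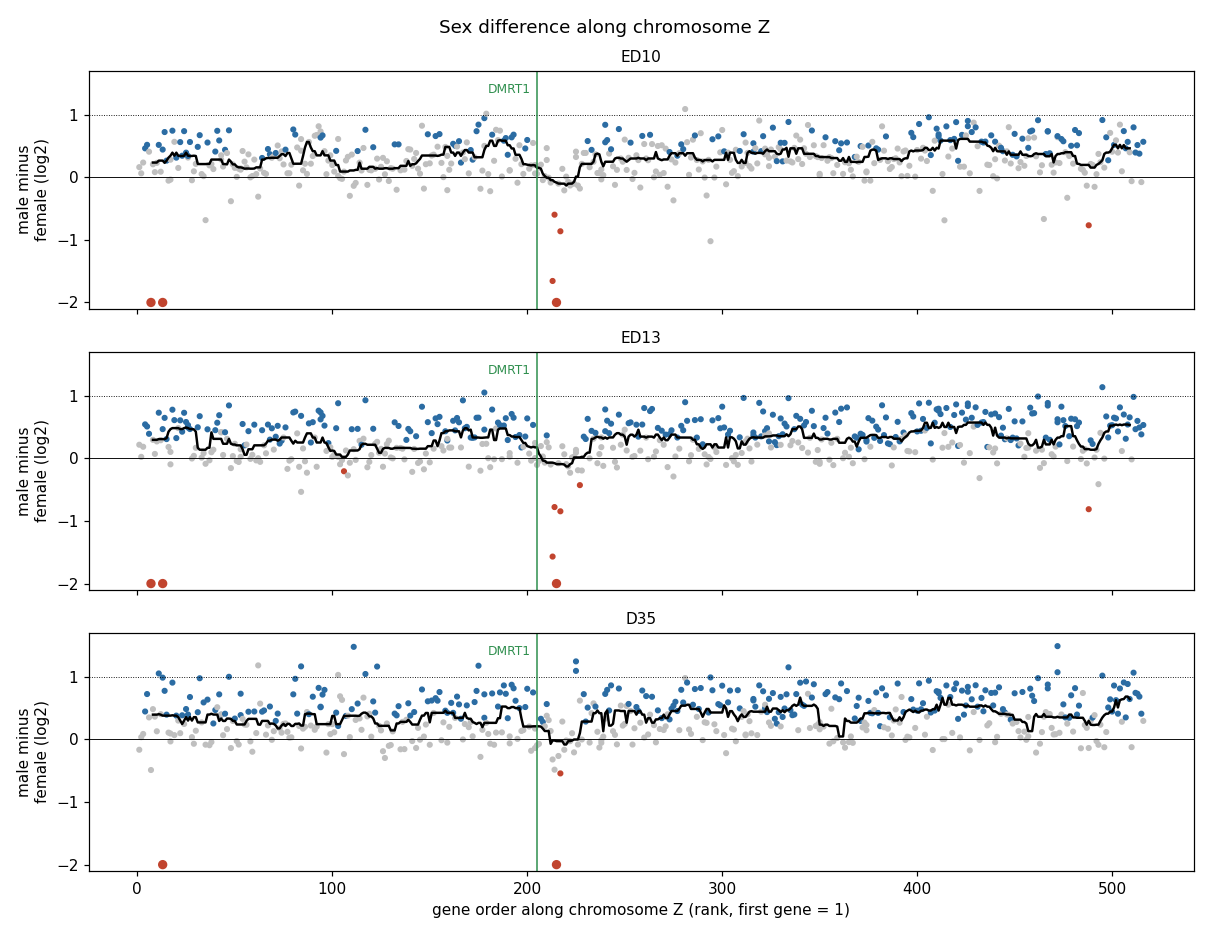
Male minus female log2 difference (y axis) of the 545 chromosome Z probe sets in gene order (x axis, rank) at ED10, ED13 and D35; blue points are male-higher, red points female-higher, grey points past no threshold, the black line is the median over 15 genes and the green line marks DMRT1. Points below -2 are drawn larger at -2. The running median dips below 0 after DMRT1, to -0.13, -0.13 and -0.08.

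Sex differences kept their order between the embryonic ages more than into slaughter age. The Spearman coefficient over the 545 members was 0.87 between ED10 and ED13, 0.66 between ED10 and D35 and 0.71 between ED13 and D35. All ages share the probe sets, and ED10 and ED13 also share the array scale. Male-higher calls were shared by all ages for 131 members, 315 had such a call at 1 age or more, 221 passed no threshold at any age, and 0 were called in opposite directions. Of the ED10 male-higher list 98.7% were on the ED13 list, and 55.2% of the ED13 list were on the ED10 list. Of the ED13 list 78.9% were on the D35 list, and 86.3% the other way. The test of the difference between ED10 and ED13 over the 48 embryo arrays called 0 members in limma and 0 of all probe sets. At an unadjusted p under 0.05 there were 18 members (3.30%, against 4.21% of all probe sets). The median half-width of the interval was 0.30, so smaller shifts were not detectable in a typical member. That interval is not adjusted over probe sets, and larger shifts also went uncalled, such as -0.79 for LOC100858705.

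**Figure D5:**
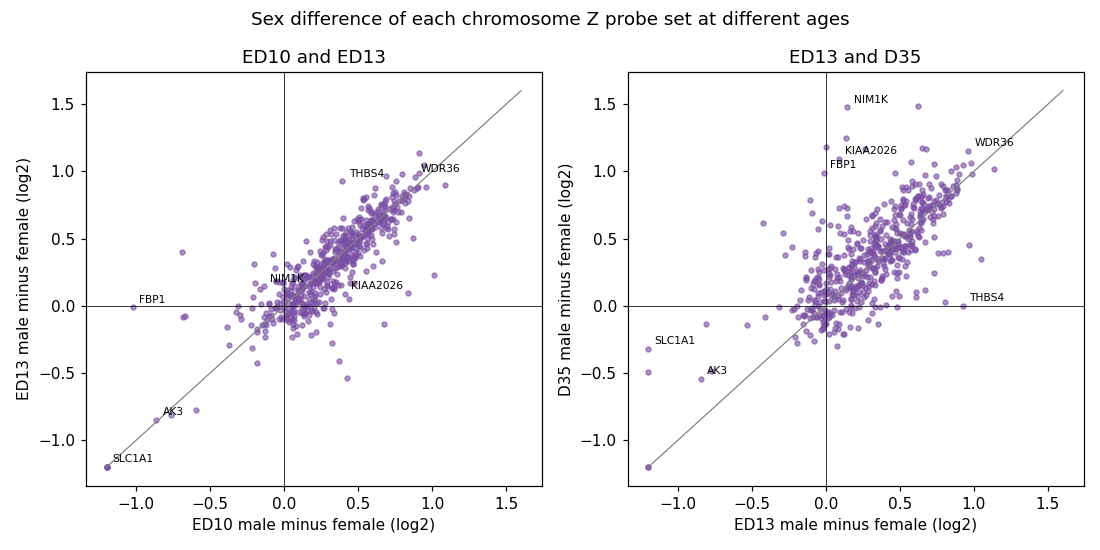
Male minus female log2 difference of each chromosome Z probe set on ED13 against ED10 (left) and at D35 against ED13 (right), with values past -1.2 or 1.6 drawn at those limits and the line of equal difference in grey. Points lie closer to the line between the embryonic ages (Spearman 0.87) than between ED13 and D35 (0.71), where NIM1K, KIAA2026 and FBP1 lie above it and THBS4 below. THBS4 was dim at D35, averaging 5.60 in both sexes.

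Some members were called at D35 alone with large differences. NIM1K, a protein kinase gene, differed by -0.14 and 0.15 in embryos. At D35 it read from 4.13 to 7.41 (median 5.96) in males and from 2.66 to 6.79 (median 4.42) in females, with overlap, a difference of 1.48 ± 0.27 (adjusted p = 1.98e-04). Over the 5 temperature groups of D35 the NIM1K difference ran from 0.72 (36.8 °C on ED10 to ED13) to 2.95 (controls). DNAJB5, a co-chaperone, has 2 probe sets, which differed by 0.12, 0.02 and 0.39 and by 0.14, 0.14 and 0.73, the latter the brighter at D35. PIK3R1, the regulatory subunit of a lipid kinase, differed by 0.22, 0.17 and 0.58. Both DNAJB5 probe sets and PIK3R1 were called at D35 only. These contrasts between embryos and D35 were not tested.

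The male excess was seen in every temperature group. Between the sexes the median difference of the 545 members was 0.26 in ED10 controls, 0.34 at 38.8 °C and 0.35 at 36.8 °C. On ED13 it was 0.33 in controls, 0.34 at 38.8 °C and 0.27 at 36.8 °C. At D35 it was 0.44 in controls, 0.37 and 0.24 after 38.8 °C on ED7 to ED10 and ED10 to ED13, and 0.40 and 0.40 after 36.8 °C on the same intervals. Autosomal medians of the same groups, in this order, were -0.04, -0.01 and -0.03 on ED10 and 0.02, 0.02 and -0.03 on ED13. At D35 they were 0.09, 0.02, 0.01, 0.03 and 0.05. The test of whether the sex difference changed with temperature called 0 members in each of 8 contrasts and 0.0% of all probe sets in limma, with and without a trended robust prior. At an unadjusted p under 0.05 there were between 13 and 28 of 545 members per contrast, or 2.39% to 5.14%, near the 1.98% to 4.48% of all probe sets. With 4 males and 4 females in most groups, the median half-width of the interval of such a change was 0.62 and 0.63 on ED10, 0.41 on ED13 and 0.69 at D35, so changes smaller than these were not detectable in a typical member. These intervals are not adjusted over probe sets, and larger changes also went uncalled. An example is NIM1K at D35, at -2.23 after 36.8 °C on ED10 to ED13. The smallest p on ED10 for both temperatures belonged to DDX4, a germ-cell RNA helicase, whose sex difference was -0.51 in controls, 0.34 at 38.8 °C and 0.53 at 36.8 °C (smallest adjusted p of any member in these contrasts 0.962). On ED13 it was PARP8 at 38.8 °C (-0.19 in controls and 0.37 treated) and HMGCS1 at 36.8 °C (0.23 and -0.22). At D35 it was MIR449A, a microRNA, after 38.8 °C on ED10 to ED13 (0.85 in controls and -1.31 treated).

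The temperature effect on chromosome Z itself, with sex in the model, called 0 members in the 8 contrasts with control, against 0.0% of all probe sets in 6 of them and 0.00483% in both ED13 contrasts. At an unadjusted p under 0.05 there were from 9 to 66 members per contrast, or 1.65% to 12.1%, against 2.46% to 14.4% of all probe sets. The median treated minus control difference of members was 0.11 at 38.8 °C and -0.08 at 36.8 °C on ED10, where autosomal medians were 0.04 and -0.02, and with the listing block in the model both turned sign, to -0.05 and 0.08. With sex in the model the median standard error of members fell from 0.183 to 0.147 on ED10, from 0.140 to 0.096 on ED13 and from 0.213 to 0.167 at D35. With the listing block as a term 12 of the 545 members were called at 36.8 °C on ED13 and 0 at 38.8 °C, while 4.12% of all probe sets were called at 36.8 °C. In that 36.8 °C fit the median treated minus control difference was 0.09 over members and 0.10 over autosomal probe sets. Among the 12, FECH, the last enzyme of haem synthesis, differed by 0.37, MTAP by 0.61, MARVELD2 by 0.44 and DMRT1 by -0.27. Their adjusted p in limma was 0.0247, 0.0493, 0.0496 and 0.0435, so most were near the threshold.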

How the data were processed

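Affymetrix 1-colour arrays measured total RNA of pectoralis muscle, 1 array per animal. The authors deposited log2 values per probe set and array in a pair of tables with 0 differing values, of 20804 rows, 98 of them controls. The processing software was GCOS 1.1.1, per the submitters' processing notes; how probes were summarised and normalised is not given in the sources used here. Arrays give no read depth, and their number limits precision.

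Genes came from the platform annotation, matched to GRCg7b by Entrez identifier (524 members) or symbol (21). Sex was called from 18 W probe sets. Differences were tested 2-sided by moderated linear models (limma 3.58.1, R 4.3.3), adjusted by Benjamini-Hochberg over 20706 probe sets, at a threshold of 0.05. The sex fit held sex and temperature group over all arrays of an age, the interaction fit a mean for each sex and group, and the temperature fit group and sex. Errors are SE, and intervals 95%. W probe sets, which gave the sex, are no result, though counts over all probe sets hold them. The p-values measure the spread between these animals. A gene with several probe sets is represented in lists and bins by the brightest at that age. The 8 D35 controls carry labels of both intervals and were used as 1 group. No replicate was dropped or imputed.

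Named genes follow a rule: the most male-higher, most female-higher and tightest near 0 at each age, the brightest of each of 10 lists, the smallest interaction p, and genes fixed by name. Others were named after their values were seen. Members, lists and rules were chosen with earlier results of these data known. GHR, TPM2, SMAD2, CHD1, HINT1 and VCP are not analysed here. Alternatives were quantile normalization, autosomal centring, the listing block, sex alone, a trended robust prior, 1 probe set per gene, bright probe sets, the W median, and leaving out each array.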

Additional observations from a re-analysis of the deposited data

How the results depend on the processing

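The median sex difference of members stayed above 0 at each age under the alternatives run, and interaction and age calls stayed at 0. Of the members, 29.9% were called by sex on ED10, and 45.1% with arrays centred on autosomes, 42.8% after quantile normalization, 28.3% within the first listing block and 5.69% within the second, each of 12 arrays. At D35 47.3% were called, and 28.4% within the first block and 34.7% within the second, each of 20 arrays. Shares of all probe sets under these alternatives are not given here. The 12 temperature calls of ED13 appeared only with the block as a term. Medians over bright members alone were 0.42 on ED13 and 0.45 at D35. Leaving out each array in turn gave 25.9% to 37.6% called and medians of 0.27 to 0.36 on ED10 (lowest without a 36.8 °C female, highest without a control male), 51% to 54.3% and 0.28 to 0.33 on ED13, and 45.7% to 49.5% and 0.35 to 0.39 at D35, with 0 to 0 interaction or age calls. Of the named-gene values under 5 settings 26 gained a call and 9 lost it, among them CKMT2, PLK2 and RPL37 at D35, GAS1 on ED13 and HSD17B4 on ED10; the cause was not tested. No paired analysis was possible because the replicate numbers name different animals in each group. Precision is limited by the number of arrays, and dim probe sets have wider intervals.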
